A study of Mus musculus with 2 samples.

Results

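The P2X purinergic receptors are the 7 genes P2rx1 to P2rx7, and all 7 were represented on both arrays, by 14 of the 39429 probes. They were taken by gene name, and the family was chosen because P2rx1 was about 2-fold lower in mutant than in control ureters on both arrays, so the values of its members are given as a description and carry no p-value. After a filter on dim probes (more than 50% of a probe's spots well above background in at least 1 genotype on both arrays), 12 of the 14 probes and all 7 genes were kept, among 21143 genes in all.

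The study compared RNA of ureters from NMRI mice at postnatal day 4. Mutant ureters, called Rbpj-cKO, were Tbx18(cre/+);Rbpj(fx/fx): a Cre recombinase expressed from the Tbx18 locus, which is active in the mesenchyme around the ureteric epithelium, acts on floxed Rbpj alleles. Control ureters were Tbx18(+/+);Rbpj(fx/n.d.), with 1 floxed Rbpj allele and another left undetermined by the labels; they carried no Cre allele, so that a Tbx18 copy was replaced in the mutants alone. Array 1 held a pair labelled female and array 2 a pair labelled male with the dyes exchanged. How many animals stood behind each RNA, and whether they were pooled, was not stated. SDs measure only the spread between these 2 pairs. The p-values of limma rest on that spread, moderated by a variance estimated over all genes. Sex, dye orientation and replicate cannot be told apart.

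P2X receptors are cation channels that open when extracellular ATP binds, and each channel is an assembly of subunits of the same or of different kinds. Sodium and calcium enter through the open pore. In smooth muscle of the urinary tract, of the vas deferens and of small arteries, P2X1 is the subunit best known to turn ATP released from nerves into contraction, whereas P2X2 and P2X3 are known from sensory neurons and P2X4 and P2X7 from macrophages and other immune cells.

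The genes that differed were P2rx1 and P2rx5, each measured by a single probe of 60 bases. The first 30 bases of these probes are shown to identify what was hybridised, next to those of the 3 P2rx7 probes, whose ratios differed from each other. Positions are those of the array files (mm9). The P2rx1 probe lay at chr11:72828564-72828623 and the P2rx5 probe at chr11:72986128-72986187, both on the plus strand, and the P2rx7 probes at chr5:123134194-123134253, chr5:123105174-123105233 and chr5:123120528-123123413, the last spanning an intron. No gene annotation of that build was at hand, so exon and UTR positions are not given.
P2rx1 probe: tcaggtggagaagtaaccctgatgaatctt
P2rx5 probe: gctctcagaagcccagccttgatgtgctaa
P2rx7 probe 1: ttcacttctctctttaaagggaaccatctt
P2rx7 probe 2: ggtcaaaaagctccccaatccatgcaacaa
P2rx7 probe 3: tttcggcactggaggaaaatttgacatcat

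The stretch just upstream of P2rx1 is shown because the gene deleted here, Rbpj, encodes the DNA-binding protein of Notch signalling, whose core site is TGGGAA. It is the plus strand of chr11:72998895-72999055 in GRCm38.p6, from RefSeq, and ends 1 base before the gene's start. Capitals mark the core, which begins at -8 from the gene's start.
P2rx1 upstream: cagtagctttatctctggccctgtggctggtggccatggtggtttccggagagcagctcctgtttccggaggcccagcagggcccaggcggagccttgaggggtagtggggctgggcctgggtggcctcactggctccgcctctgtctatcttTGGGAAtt
The promoter windows searched ran from 250 bases before to 50 bases after each annotated start, and 5 of them, for P2rx1, P2rx4, P2rx6 and P2rx7 (a pair of starts), matched members by symbol. Both strands of each window were searched, and TGGGAA was found only as written, not as its reverse complement. It began at -97 in the P2rx1 window, whose own start lies 89 bases downstream of the gene's start. This core is the one shown above. Counted from each window's own start, it began at 6 in the P2rx6 window and at -187 in 1 of the P2rx7 windows. P2rx6 and P2rx7 carry the core without having passed the size rule described next. The core was present in 25.6% of all 32851 windows of this length. The longer form GTGGGAA, which overlaps the core and was present in 6.38% of all windows, was found in none of the 5 member windows, nor was the CArG box bound by SRF (1.63% of all windows). TATAAA, present in 13.6% of all windows, was found only in the P2rx6 window, as its reverse complement. A match or its absence describes these letters in this window and no more.

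Log2 ratios are given as Rbpj-cKO over control, negative where the mutant RNA was lower, and levels as normalized log2 intensities of the brightest probe of a gene. Since 2 arrays leave 1 residual degree of freedom, a gene was counted as changed in size if it was at least 1.5-fold higher or lower on both arrays. By this size rule 168 genes (0.795% of those tested) were lower and 85 (0.402%) higher. With limma and Benjamini-Hochberg adjustment 1 gene passed (0.00473%), the brown fat uncoupling protein Ucp1 (adjusted p = 0.0239). The targeted gene Rbpj was lower on both arrays, by about 2-fold each time (mean log2 ratio -1.01 ± 0.13, SD, n = 2; limma adjusted p = 0.0853). The Rbpj-cKO RNA labelled female went against its label: the Y-linked gene Ddx3y stood at 11.31 in it, against 7.08 in the control RNA of that array and 13.46 and 12.92 in the control and Rbpj-cKO RNAs labelled male. Since array 1 is touched by this, the value of each member on array 2 alone is given throughout. The hepatocyte gene Alb was at 13.93 in the control RNA labelled male and between 9.83 and 11.27 in the others. Array 2 therefore carries a difference of its own, and its values alone are not free of such limits. Of the gene spots, 71.8% to 74.0% were well above background in each channel. Markers of the tissue were measured: all 12 smooth muscle and all 10 urothelium markers passed the filter.

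P2rx1, the P2X subunit of smooth muscle and platelets, was at 11.96 in the control and 10.90 in the Rbpj-cKO RNA of array 1, and at 12.12 and 11.19 on array 2. Both mutant RNAs lay below both control RNAs. The gene was chosen for being lower on both arrays, so this is a description. How many of all genes separate in this way was not counted. The log2 ratios were -1.06 and -0.93, a mean of -0.995 ± 0.091 (SD, n = 2), which is 0.502 of the control level or 1.99-fold lower. P2rx1 was the gene at rank 157 of 21143 from the lowest mean ratio, so that 0.738% of the genes lay below it. On each array 3 spots of the probe remained after outlier flags were dropped, with ratios from -1.09 to -1.03 on array 1 and from -0.96 to -0.91 on array 2. Every spot was therefore close to 2-fold lower, and the spot ranges of the arrays did not overlap. The probe was far from the detection limit, with a mean signal over local background of 1871 to 4893 in the 4 RNAs.

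P2rx5, a subunit also described as a surface marker of brown adipocytes, was at 9.51 in the control and 7.79 in the Rbpj-cKO RNA of array 1, and at 8.41 and 7.69 on array 2. The mutant RNAs were close to each other and the control RNAs were not. Both mutant RNAs lay below both control RNAs, again without a count over all genes. The log2 ratios were -1.72 and -0.71, a mean of -1.22 ± 0.71 (SD, n = 2), or 2.32-fold lower. P2rx5 stood at 0.304 of the control level on array 1 and at 0.609 on array 2, so its difference was more uneven between the pairs than that of P2rx1. The spots of its probe ranged from -1.83 to -1.55 on array 1 and from -0.75 to -0.67 on array 2, so that the ranges of the arrays were apart. It ranked 95 from the lowest. The signal over local background ran from 117 in the Rbpj-cKO RNA of array 2 to 587 in the control RNA of array 1, and the mean ratio ran from -1.61 to -1.19 over 10 ways of processing the arrays, against -1.02 to -0.99 for P2rx1.

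**Figure D1:**
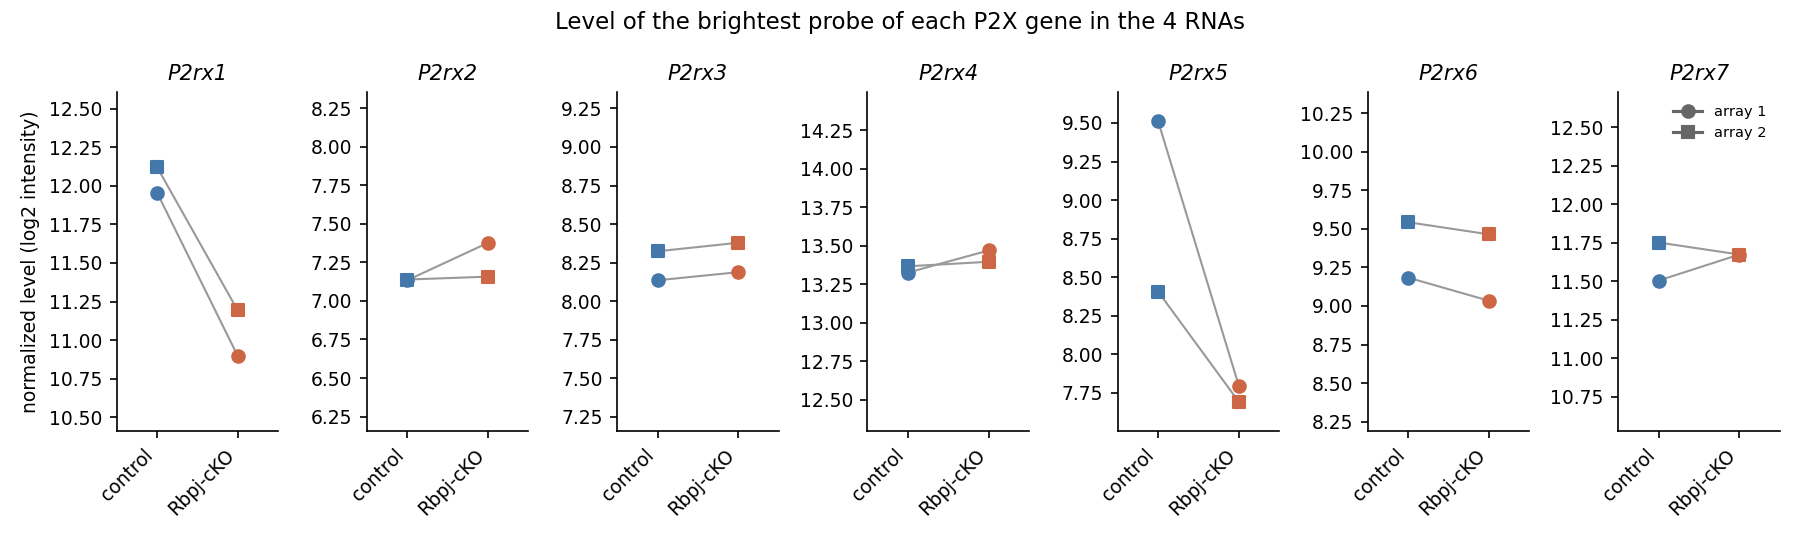
Normalized level (log2 intensity, each panel spanning the same range) of the brightest probe of each P2X gene in the control and Rbpj-cKO RNAs of array 1 (circles) and array 2 (squares); lines join the RNAs of an array. P2rx1 and P2rx5 are lower in the Rbpj-cKO RNA of both arrays, P2rx5 from a control level of 9.51 on array 1 and 8.41 on array 2, and the other 5 genes stay nearly level.

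P2rx4, a calcium-permeable subunit found in many tissues, was at 13.33 and 13.47 in the control and Rbpj-cKO RNAs of array 1 and at 13.37 and 13.40 on array 2. The mutant RNAs were the higher ones, by a narrow margin. The mean ratio was 0.09 ± 0.08 (SD, n = 2). A second, dimmer P2rx4 probe gave 0.15 on array 1 and -0.01 on array 2.

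P2rx7, the subunit of the ATP receptor that drives inflammasome activation in macrophages, was at 11.51 and 11.67 in the control and Rbpj-cKO RNAs of array 1 and at 11.75 and 11.67 on array 2. The mutant RNAs lay between the controls, and the ratios had opposite signs, 0.17 and -0.08 (mean 0.05 ± 0.17, SD, n = 2). The P2rx7 probes did not give one picture: probe 2 had ratios of -0.02 and -0.40 (mean -0.21 ± 0.26) and probe 3 of 0.04 and 0.09 (mean 0.06 ± 0.04). Taken as the mean over its 3 probes, P2rx7 moved from 0.05 to -0.03.

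P2rx6, P2rx3 and P2rx2 were close to equal in the genotypes. P2rx6, a subunit that works mainly in mixed channels, was at 9.18 and 9.03 in the control and Rbpj-cKO RNAs of array 1 and at 9.54 and 9.46 on array 2. It was slightly lower within each pair (mean -0.11 ± 0.05, SD, n = 2), while the groups overlapped, because the arrays differed more than the genotypes.

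P2rx3, the subunit of sensory nerve endings, was at 8.14 and 8.19 on array 1 and at 8.32 and 8.38 on array 2, control first, and the groups overlapped. Its mean ratio was 0.05, with nearly the same value on both arrays. The other 2 P2rx3 probes that were kept gave means of -0.05 ± 0.08 and 0.06 ± 0.05 (SD, n = 2), so the sign differed between probes of this gene.

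P2rx2, which forms channels alone or with P2X3, was at 7.13 and 7.38 on array 1 and at 7.14 and 7.16 on array 2, control first. The ratio of 0.24 on array 1 was not seen on array 2, where it was 0.02 (mean 0.13 ± 0.16, SD, n = 2). Its signal over local background was 61.5 to 114 in the 4 RNAs. A second P2rx2 probe and a further P2rx3 probe did not pass the filter and were not well above background on most spots, so their ratios of between -0.07 and 0.11 carry no weight.

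**Figure D2:**
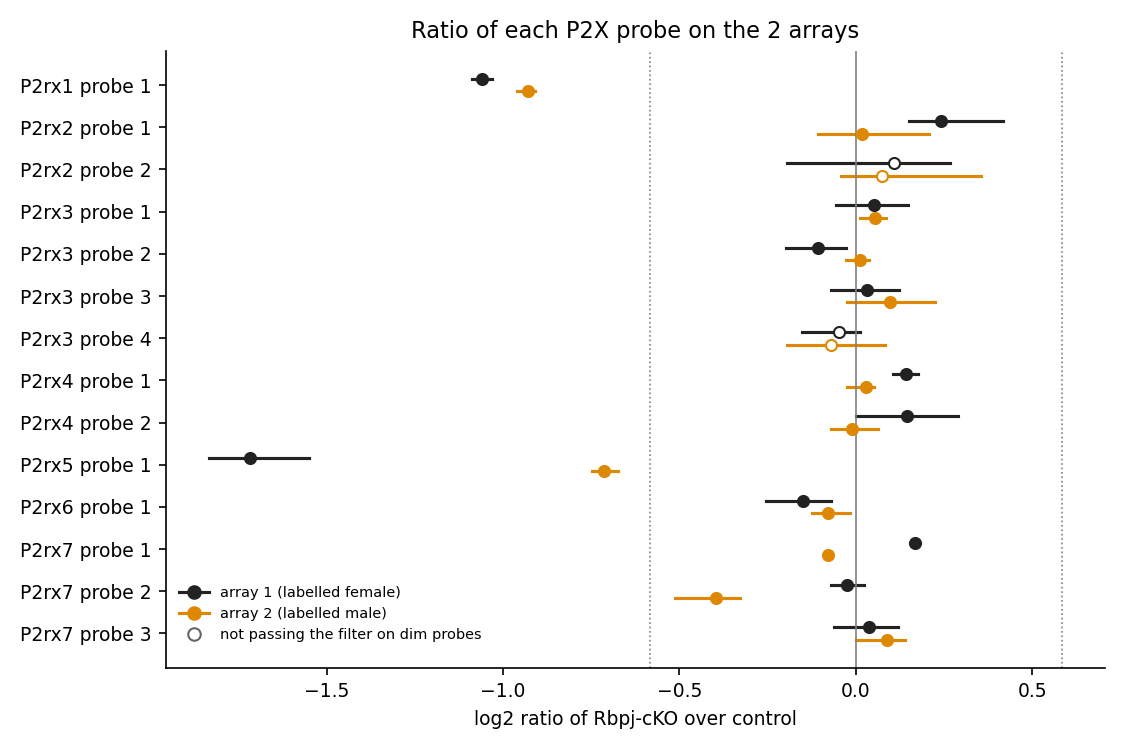
Log2 ratio of Rbpj-cKO over control for each of the 14 P2X probes on array 1 (black) and array 2 (orange); points are means over spots, bars run from the lowest to the highest spot, open points did not pass the filter on dim probes and dotted lines mark 1.5-fold. Both points of P2rx1 and of P2rx5 lie left of the lower dotted line, and no other probe crosses either line.

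Within the family, 2 of 7 genes passed the size rule as lower and 0 as higher, beside 0.795% and 0.402% of all genes; the family was chosen on this contrast, so the share is not read further. By any amount, 3 members were lower on both arrays, 3 higher on both, and P2rx7 was opposite. Among all genes, 29.7% were lower and 31.8% higher on both arrays. The median mean ratio of the family was 0.05, against -0.00 over all genes. P2rx1 and P2rx5 thus stood far from a family otherwise centred near 0. The members just inside and outside the threshold of 0.58 were P2rx5, at -0.71 on array 2, and P2rx7 probe 2, at -0.40 on that array.

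**Figure D3:**
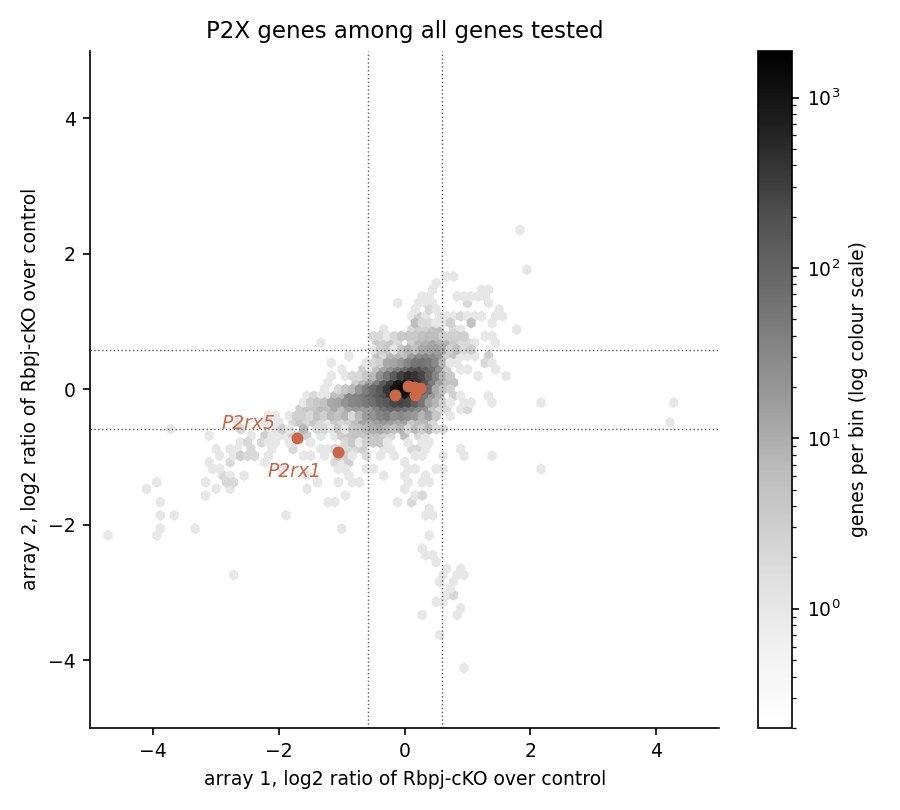
Log2 ratio of Rbpj-cKO over control on array 1 (x axis) and array 2 (y axis) for all 21143 genes, as hexagonal bins shaded by the number of genes on a log colour scale, with the 7 P2X genes as orange points and dotted lines at 1.5-fold. P2rx1, at -1.06 and -0.93, and P2rx5, at -1.72 and -0.71, fall in the lower left corner past both lines, and the other 5 lie in the dense centre.

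P2rx1 and P2rx5 are neighbours on chromosome 11, with 4 protein-coding genes between them in the RefSeq annotation of GRCm38.p6. The 3 of those 4 that were tested were not past the size rule: the kinase Camkk1 had a mean ratio of -0.16, the cap-binding protein gene Ncbp3 of 0.02 and the histone kinase Haspin of -0.28. Itgae did not pass the filter. Of the 3 genes on either side, Atp2a3, which encodes the sarco/endoplasmic reticulum calcium pump SERCA3, was lower by -0.92 and -0.65 (mean -0.78 ± 0.19, SD, n = 2) and passed the size rule. Emc6, of the membrane protein insertion complex next to P2rx5, was at -0.85 on array 1 and -0.20 on array 2. So 1 of the 9 other genes tested at this locus passed the size rule, against 0.795% lower and 0.402% higher among all genes. P2rx7 and P2rx4 are adjacent on chromosome 5 with no protein-coding gene between them. None of the 6 genes around that pair passed the size rule, with mean ratios from -0.35, for the calcium pump Atp2a2, to 0.13. That count of 0 is near the shares over all genes. These neighbours were listed after the values of the members were seen, and nothing is read from counts over so few genes.

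**Figure D4:**
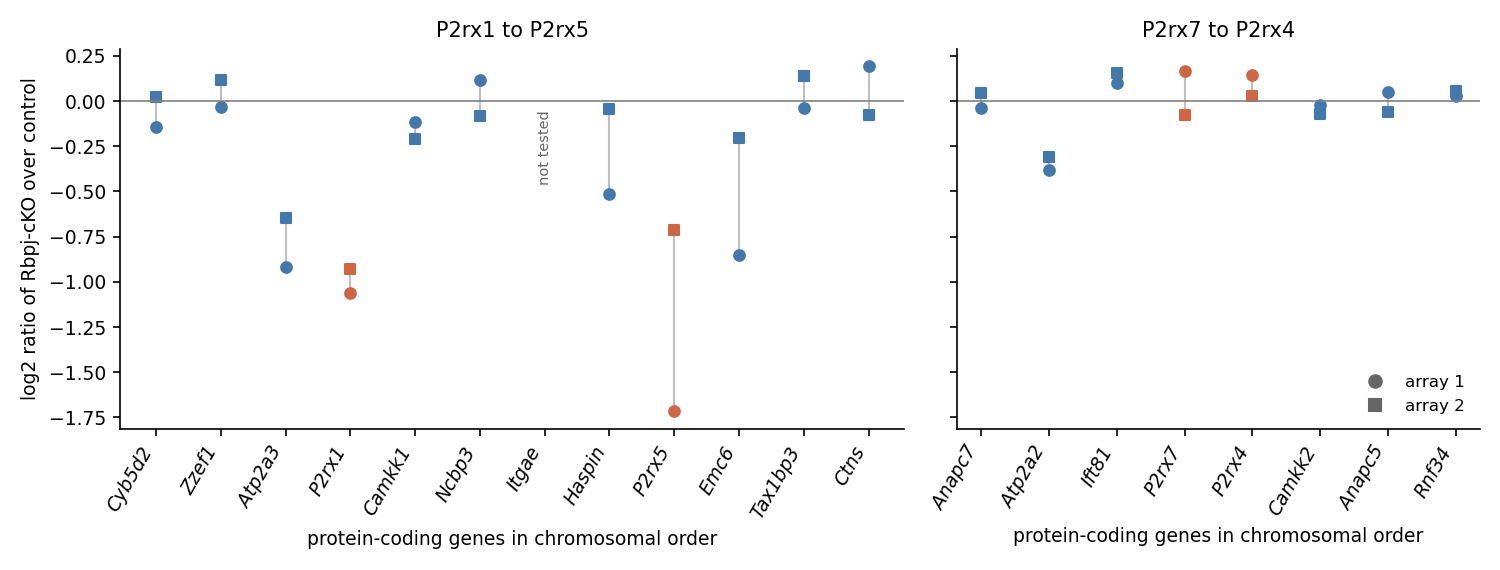
Log2 ratio of Rbpj-cKO over control on array 1 (circles) and array 2 (squares) for the protein-coding genes around P2rx1 and P2rx5 (left) and around P2rx7 and P2rx4 (right), in chromosomal order at equal spacing, with P2X genes in orange and others in blue. P2rx1, P2rx5 and Atp2a3 are lower on both arrays with intervening genes closer to 0, and the right panel stays between -0.38 and 0.17.

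The genes whose levels over the 4 RNAs were most like those of P2rx1 were taken by the Euclidean distance between log2 levels, each gene centred on its own mean. In order, they were Apobec2 (a muscle member of the cytidine deaminase family; distance 0.086), Hhatl (0.109), Psg16 (0.133), Spock3 (a secreted proteoglycan; 0.135), Chrdl2 (a BMP antagonist; 0.141), Slitrk3 (0.144), Synm (the muscle intermediate filament protein synemin; 0.174) and Pde1c (a calcium-dependent phosphodiesterase; 0.188). Their mean ratios lay between -1.13, for Synm, and -0.86, for Pde1c. The genes most like P2rx5, listed after its values were seen, were Sox6os (0.0787), Chchd10, Mcrip2, Ltc4s, Pcx, Lrg1, Acp5 and Lctl (0.180). Chosen by this profile, each of these 8 had, like P2rx5, a larger difference on array 1 than on array 2. Pcx, the pyruvate carboxylase gene, had -1.76 and -0.51. None of the 8 genes nearest to P2rx1 was among the 8 nearest to P2rx5, and none could be at these distances. In the control RNA of array 1 alone, the centred level was 0.41 for P2rx1 and 1.16 for P2rx5. Likeness over 4 RNAs was measured here, and nothing of shared control.

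Lists of the cell types that carry P2X receptors were set beside the members. Among all genes, 0.795% were lower and 0.402% higher by the size rule, and 29.7% were lower on both arrays by any amount. A count of 0 in a list this short is near these shares, and nothing is read from it. In bulk RNA, fewer cells of a type and less RNA per cell cannot be told apart. Beside P2rx1, 9 of 12 smooth muscle markers were lower on both arrays, and 2 passed the size rule: Synm (mean -1.13 ± 0.21, limma adjusted p = 0.0878) and the muscle filament gene Des (-0.74 ± 0.12, adjusted p = 0.114). Cald1 (-0.44) and Synpo2 (-0.40) followed in size. The contractile genes differed less than P2rx1, and not all in the same way. Acta2 was at 0.20 and -0.36 and Tagln at 0.20 and -0.34, and their means were the nearest to 0 of the list. Myh11 was at -0.15 in the mean. Lower on both arrays were also Actg2 (-0.24 and -0.55), Smtn (-0.28 and -0.32), Lmod1 (-0.31 and -0.16) and Cnn1 (-0.07 and -0.39). The log2 of the summed levels of the smooth muscle list was 19.60 and 19.79 in the control RNAs and 19.55 and 19.41 in the Rbpj-cKO RNAs. Of the pericyte and vascular smooth muscle markers, 7 of 9 were lower on both arrays and 2 passed the size rule, the Notch target Heyl (-1.52 ± 0.12, adjusted p = 0.0819) and the potassium channel gene Kcnj8 (-0.70 ± 0.05, adjusted p = 0.105), with Pdgfrb at -0.64 and Ndufa4l2 at -0.58. Their summed level was 16.84 and 16.78 in control and 16.53 and 16.43 in Rbpj-cKO RNA. The part of either cell type in the lower P2rx1 level was not tested. Platelets also carry P2X1, and 0 of the 7 platelet markers tested passed the size rule, with Ppbp at -0.39, Treml1 at 0.23, Clec1b at -0.17 and Itga2b at -0.13. The summed level of the list was 13.88 and 13.68 in control and 13.87 and 13.76 in Rbpj-cKO RNA, nearly level within each array. Almost all of this sum was Pf4, at 13.77 and 13.55 in control and 13.77 and 13.66 in Rbpj-cKO RNA. Ppbp, Treml1, Clec1b and Itga2b were dim, at 8.02 or below in every RNA. The sum therefore describes Pf4 more than a list of platelet genes.

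Beside P2rx5, all 11 brown fat and adipocyte markers tested were lower on both arrays, against 29.7% of all genes. Of these, 10 passed the size rule, against 0.795% of all genes, and the remaining 1 was Prdm16 (-0.26). They included the adipokine Cfd (mean -3.47 ± 1.77, SD, n = 2; limma adjusted p = 0.177), the respiratory subunit gene Cox8b (-2.98), the amino acid transporter gene Slc36a2 (-2.80) and Ucp1 (-2.74). The other 6 were Cidea (-2.70), Cidec (-2.38), Plin1 (-2.09), Adipoq (-1.90), Fabp4 (-1.67) and Ppargc1a (-1.14). The median of the list was -3.05 on array 1 and -1.62 on array 2, so the median, like P2rx5, differed more on array 1. Ucp1 was an exception, at -2.74 on both arrays. Its Rbpj-cKO RNAs were at 13.45 and 10.38, whereas those of P2rx5 were close to each other. The summed level of the list was 19.65 and 18.09 in the control RNAs of arrays 1 and 2 and 16.75 and 16.88 in the Rbpj-cKO RNAs. P2rx5 had the same order among the control RNAs. P2rx1 had the opposite order there, 11.96 on array 1 and 12.12 on array 2. The part of adipocytes in the lower P2rx5 level was not tested.

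Beside P2rx4 and P2rx7, 0 of 10 macrophage markers passed the size rule, against 0.795% lower and 0.402% higher among all genes. This count is near these shares, and nothing is read from it. C1qa and C1qb were at -0.10, Cd163 at -0.09 and Ptprc at -0.08. The summed level of the macrophage list was 14.74 and 14.65 in control and 14.71 and 14.64 in Rbpj-cKO RNA. Beside P2rx2 and P2rx3, 9 of 11 sensory and autonomic neuron markers were tested. Of these, the neuronal tubulin gene Tubb3 was at 0.30, Stmn2 at 0.25 and Elavl4 at 0.11, none of them past the size rule, and the sensory neuron genes Scn10a and Trpv1 did not pass the filter on dim probes. The summed level of the neuron list was 12.57 and 12.73 in control and 12.89 and 12.84 in Rbpj-cKO RNA. Of tissues that lie near the ureter, 2 of 9 skeletal muscle markers tested were lower by the size rule, Myh8 (-1.38 ± 0.19, adjusted p = 0.0819) and Ckm (-0.80 ± 0.02, adjusted p = 0.0878), with Tnnt3 at -0.31 and Actn3 at 0.24, and 2 of 7 kidney epithelium markers tested were higher, Kap (1.24 ± 0.20) and Lrp2 (0.99 ± 0.05, both adjusted p = 0.0819 by limma), with Umod at 0.87. The summed level was 16.04 and 16.09 in control and 15.76 and 15.88 in Rbpj-cKO RNA for skeletal muscle, and 11.06 and 10.96 against 11.77 and 11.46 for kidney. Most of the skeletal muscle sum was Acta1, at 15.45 and 15.41 in control and 15.21 and 15.34 in Rbpj-cKO RNA. No urothelium marker of 10 passed the size rule (Trp63 0.34, Upk1b 0.33, Upk1a 0.30 and Upk3a 0.24), again near the shares over all genes. The part of these tissues in the P2X values was not tested.

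**Figure D5:**
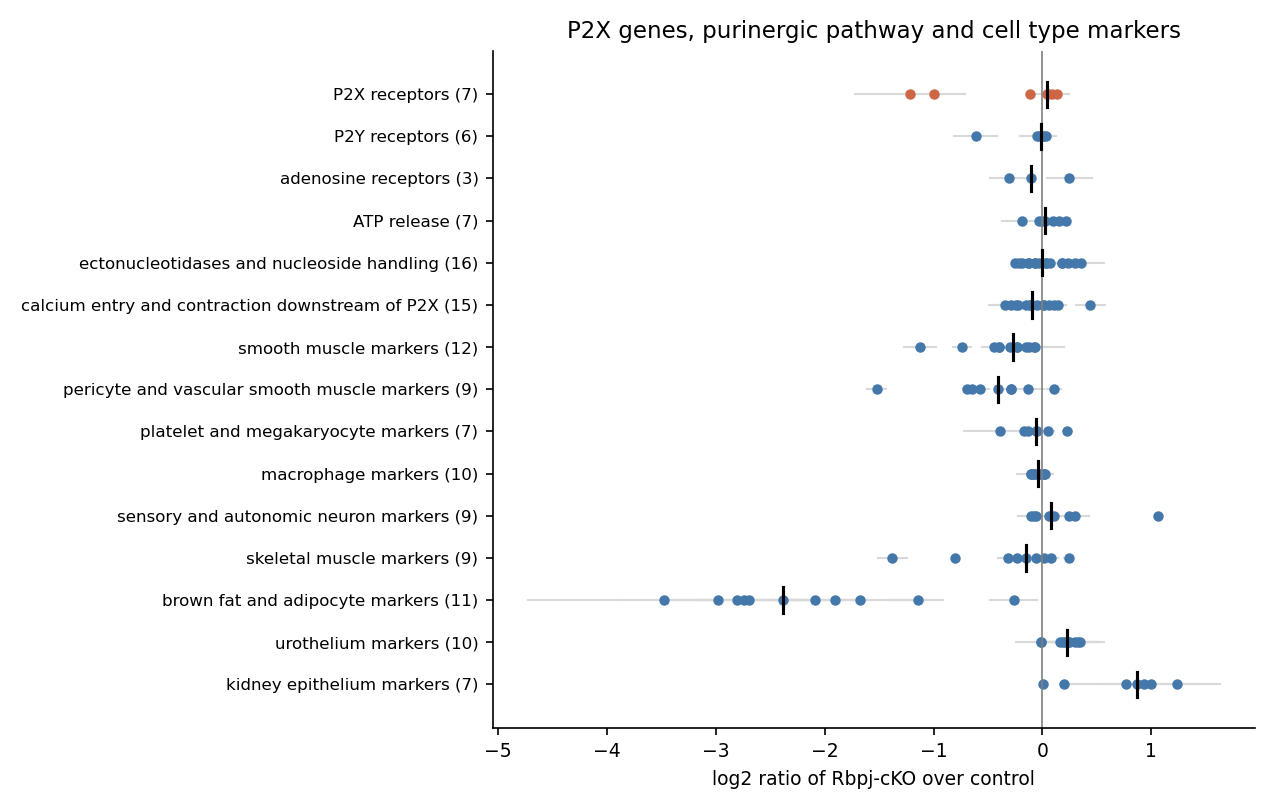
Mean log2 ratio of Rbpj-cKO over control for each gene tested (points), with a grey line from its array 1 to its array 2 value and a black bar at the median of the list; the number tested is in brackets. P2rx1 and P2rx5 stand alone at the left of the P2X list, the other purinergic lists have medians near 0, and the brown fat and adipocyte list is centred at -2.38.

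Other genes of the ATP signalling pathway were set beside the members. Of 53 listed, 47 were tested, and 0 were higher and 0 lower by the size rule, beside 0.402% and 0.795% of all genes, so that 0 of 47 is near the background. Limma passed 0 of them, with a smallest adjusted p of 0.196, in a table in which 1476 genes were higher and 1487 lower at an unadjusted p under 0.05. By any amount, 19 (40.4%) were lower on both arrays, 12 (25.5%) higher and 16 opposite, beside 29.7% lower and 31.8% higher among all genes, and the median mean ratio was -0.03.

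Among the metabotropic P2Y receptors, which couple nucleotides to G proteins, 6 of 8 were tested. P2ry14, the receptor for UDP-glucose, was at -0.42 and -0.81 (mean -0.61 ± 0.28, SD, n = 2; limma adjusted p = 0.196), below 1.5-fold on array 1. P2ry13 (-0.05), P2ry2 (0.03) and P2ry12 (-0.03) had opposite signs on the arrays. Of the adenosine receptors, Adora2a was at -0.31 ± 0.24, Adora1 at 0.25 ± 0.29 and Adora2b at -0.11 ± 0.04. None of the 6 P2Y and 3 adenosine receptors tested passed the size rule, a count near the background of 0.795% lower and 0.402% higher, and nothing is read from it.

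Of the genes for ATP release, the channel gene Panx1 was at 0.21 ± 0.06, Vdac1 at -0.19 ± 0.25, the connexin gene Gja1 at 0.16 ± 0.11 and Gjb2 at 0.10. All 16 genes for ectonucleotidases and nucleoside handling, which break down extracellular ATP and take up its products, were tested. Entpd2, which cleaves ATP to ADP, was at 0.36 ± 0.09 (limma adjusted p = 0.223), Acpp at 0.30 ± 0.08, Entpd1 at -0.25 ± 0.03 and Entpd3 at 0.23 ± 0.09. Of the 15 genes for calcium entry and contraction downstream of P2X channels, the T-type channel gene Cacna1g was at 0.44 ± 0.19, the pump gene Atp2a2 at -0.35 ± 0.05, the plasma membrane pump gene Atp2b4 at -0.29 ± 0.26 and the myosin light chain kinase gene Mylk at -0.25 ± 0.05. Each of these differences was smaller than 1.5-fold on both arrays, and each mean ratio was nearer to 0 than that of P2rx1.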

How the data were processed

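Two-colour arrays of 4 ureter RNAs were analysed, 1 array per pair. Per the submitters' processing notes and the file headers, Agilent Feature Extraction 10.7.3.1 gave the deposited intensity of each spot. Its log ratio column is, per the file headers, log10 of the red over the green channel. The series table deposited by the authors holds a score with no stated recipe. It was read as signed fold: the median was 1 in each column, and 31.8% and 31.6% of values were exactly 1. Its sign was taken as deposited, with r = 0.951 and 0.923 across probes to the ratios used here. Its centring stays unknown.

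Background was corrected with normexp (mean signal, local background median, offset 50) before loess within each array, with control and flagged spots at weight 0. Flagged spots (3.34% and 3.12%) were dropped, none of the gene spots was saturated, and both arrays were oriented with Rbpj-cKO as numerator. Spots of a probe were averaged, and a gene was its brightest kept probe. Levels per RNA came from Aquantile scaling. Names came from RefSeq accessions of GRCm38.p6 for 28328 probes. Ratios were tested against 0 with limma 3.58.1 in R 4.3.3 (lmFit, eBayes, two-sided, Benjamini-Hochberg at 0.05, 4.37 total degrees of freedom), and the pipeline was tested on simulated data. The number of arrays limits the precision. The log2 values computed from the deposited intensities are relative to each array's loess curve. Alternatives changed background, normalization, ratio source, filter, probe and array.

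The members, lists and rules were chosen with earlier results of these data known. All members were named, and of each list every gene past the size rule and the 4 with the largest absolute mean ratio, plus the 8 genes most like P2rx1; 2 list genes that this rule names are not reported here. Acta2, Tagln, Myh11, Actg2, Smtn, Lmod1, Cnn1, Pf4, Acta1, the neighbours and the genes most like P2rx5 were chosen after their values were seen. Summed levels are the log2 of the sum of linear levels over a list's tested genes.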

Additional observations from a re-analysis of the deposited data

Results flagged for a closer look

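In these results the pair labelled female and the pair labelled male moved in opposite directions. With 1 pair per sex the differences were not tested, and sex cannot be told apart from dye orientation and replicate. Among all genes, 8146 of 21143 had opposite signs on the arrays. Log2 ratios are given for the female and then the male label.

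Among the P2X receptors, each by its brightest probe, this held for P2rx7 alone, at 0.17 and -0.078. Among the P2Y receptors named, it held for P2ry13 (0.10 and -0.21), P2ry2 (0.13 and -0.060) and P2ry12 (0.021 and -0.088). Of the markers named, the smooth muscle genes Acta2 (0.20 and -0.36) and Tagln (0.20 and -0.34) had opposite signs, the leukocyte gene Ptprc was at -0.23 and 0.076, the neuronal gene Elavl4 at 0.23 and -0.011 and the uroplakin gene Upk3a at 0.56 and -0.073. Of the neighbours named, it held for Ncbp3 (0.12 and -0.083). The Y-linked genes Ddx3y (4.23 and -0.54) and Eif2s3y (4.27 and -0.19) and the hepatocyte gene Alb (0.90 and -2.66) had the widest gaps of those named.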

How the results depend on the processing

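P2rx1 kept its direction and stayed within the spread between arrays under all 13 alternatives, from -1.06 to -0.93. P2rx5 did likewise, from -1.72 to -0.71, and both ends are the single arrays. A single array cannot leave this spread. Each of the 2 genes had a single probe, well above background on all spots. The other filters, the mean over probes and the fit that ignored the pairing therefore could not move them. Over the 10 alternatives that kept both arrays and their pairing, P2rx1 and P2rx5 passed the size rule in 10 of 10 and no other member did. For P2rx1 and P2rx5 the filters and the mean over probes only repeat the main value. The mean over probes turned P2rx7 to -0.03 from 0.05, and 5 of 13 alternatives moved P2rx3 beyond its small spread, to between 0.02 and 0.09.

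Counts over all genes depended more on the settings. Limma's count of 1 became 0 with median centring, with scaling between arrays, with the scanner's log ratio, with the series table and with no replicate block, where the 4 channels formed 2 groups and the pairing within arrays was ignored. It became 100 with eBayes set to trend and robust. Of the size rule, the 85 higher genes became 243 with the scanner's log ratio and 154 with the series table, and the 168 lower genes 264 with the scanner's log ratio. On a single array there were 202 to 258 higher and 292 to 782 lower genes. The lower purinergic pathway genes numbered 0 to 1 there, the 1 being P2ry14 on array 2. The causes were not tested, except that a single array asks for the size only once. The second P2rx2 probe and 1 P2rx3 probe were not well above background on most spots, so they add nothing on these genes.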
